A study of Mus musculus with 173 samples.

Results

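The libraries compared here are the wild-type white adipose libraries of a survey of 11 tissues in knock-in mice that model Huntington's disease. They were chosen by their labels: 7 libraries of white fat around the gonad and 8 of white fat around the intestine, 15 of the 173 libraries of the series. All come from C57BL/6 mice aged 6 months that carry no knock-in allele (Wild Type) and were housed with Het (Q20) mice, 4 females and 4 males. The animal codes in the library names pair the depots within 7 animals (3 females and 4 males), so 14 libraries entered the paired test. Intestinal female 3 has no gonadal partner and is shown but not tested. The same depots of 8 heterozygous Q175 mice of the same age and strain (16 libraries), housed with Het (Q175) mice, were used only as a second set of animals, in which genotype and housing cannot be told apart. RNA was extracted from whole frozen tissue, so in every result below fewer cells of a type and less RNA per cell cannot be told apart.

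White adipose tissue stores triglyceride in adipocytes and releases fatty acids between meals. Its adipocytes also secrete hormones, of which leptin reports the size of the fat store to the brain and adiponectin acts on insulin sensitivity. The gonadal depot hangs from the epididymis or the ovary and uterus, whereas fat of the mesentery lies along the gut, drains into the portal vein and encloses the mesenteric lymph nodes.

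The 15 libraries held 32.53 to 47.26 M estimated counts each, and levels of single genes are given in CPM (counts scaled to library size) on edgeR's TMM scale. The first principal component, with 58.6% of the variance, separated the depots. The intestinal libraries were far more mixed than the gonadal ones. Summed over a list of 21 adipocyte genes, the level was 58957 to 77700 CPM in the gonadal libraries and 8858 to 39081 CPM in the intestinal libraries, with no overlap. B cell genes summed to 23.8 to 59.2 CPM in gonadal and 240 to 3640 CPM in intestinal fat, and T and NK cell genes to 30.5 to 63.2 CPM and 146 to 1962 CPM.

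Some libraries held transcripts of neighbouring organs. Genes of pancreatic acinar cells summed to 51264 CPM in intestinal female 2, 10989 CPM in intestinal male 1 and 462 CPM in intestinal male 2, against 11.1 to 48.4 CPM in 4 other intestinal libraries. Intestinal male 4 had a sum of 1189 CPM, but Prss2, Ctrb1, Cpa1, Pnlip and Cela2a, which encode acinar enzymes, were at most 0.123 CPM there. Genes of the intestinal epithelium summed to 25484 CPM in intestinal female 2 and 20310 CPM in intestinal male 4, against 171 to 370 CPM in the others. In gonadal fat, male 1 alone held acinar genes, at 1131 CPM against 10.5 to 68.1 CPM in the other 6, and the same library had Xist at 29.2 CPM while the other male libraries had at most 1.6 CPM. The testis and vas deferens list summed to 141 CPM in gonadal male 2, against 58.6 to 66.1 CPM in the other 6 gonadal libraries, and to 140 CPM in intestinal female 2. Gonadal male 2 also had the highest Epcam (13.2 CPM) and Cyp11a1 (2.49 CPM) of the gonadal libraries. Which tissue these sums come from was not tested. Skeletal muscle genes summed to 654 CPM in gonadal female 1. Defining genes of the epididymis and ovary were at or near 0: over all 7 gonadal libraries Lcn5 had 1 count, Adam7 8, Zp3 10 and Cyp19a1 4. Other members of their lists were not. In the paired test below, 5 of 9 tested ovary and oviduct genes were higher in gonadal fat and 1 lower, against 29.5% and 30% of all genes. That list summed to 120 to 164 CPM in gonadal and 65.5 to 139 CPM in intestinal libraries. Of 4 tested epididymis genes 2 were higher and 1 lower, and the list summed to 758 to 925 CPM against 571 to 996 CPM. The uterus and Mullerian duct list, which holds Esr1, Hoxa10 and Emx2, summed to 177 to 204 CPM in the 3 gonadal females and 44.4 to 94.3 CPM in the 4 gonadal males, and smooth muscle genes to 1300 to 2416 CPM and 619 to 912 CPM. Of the other uterine genes in that list, Sprr2f was at 0 and Prss28 and Prss29 were at most 0.168 CPM in any library. The part of these tissues in the female levels of Emx2, Hoxa10 and Esr1 below was not tested. Intestinal female 3 stood apart in another way, with the highest mesothelial sum (8715 CPM) and, with male 4, the lowest lymphocyte sums. Results are therefore also given without the animals of intestinal female 2 and male 4, and without the 4 animals with pancreas or intestine transcripts in either library.

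**Figure D1:**
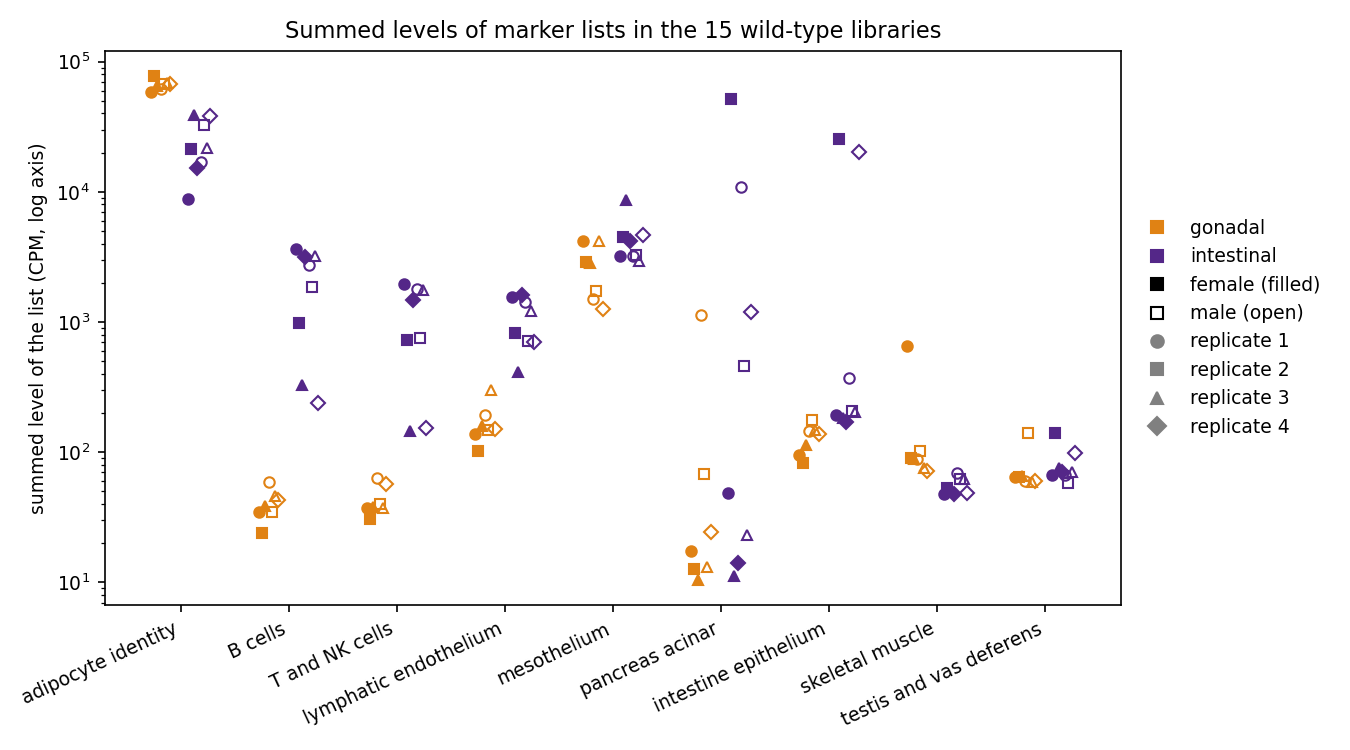
Summed level of 9 marker lists in each of the 15 wild-type libraries, in CPM on a log axis, by depot and sex. Adipocyte genes sit at 58957 to 77700 CPM in all gonadal libraries, B cell genes at 240 to 3640 CPM in the intestinal ones, and acinar genes reach 51264 CPM in intestinal female 2.

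Of 16226 genes tested, 9660 (59.5%) differed between the depots at an adjusted p under 0.05 by edgeR's quasi-likelihood test with the animal as a block. In the gonadal depot 4793 genes (29.5%) were higher and 4867 (30%) lower, and 4232 differed by more than 2-fold, 1678 higher and 2554 lower. All 7 gonadal libraries lay above all 8 intestinal ones for 1358 genes (8.37%) and below them for 1255 (7.73%). These shares are the background for every count of list members below. Scaled to the library total, 2959 genes were higher and 6825 lower, with the median of all genes at a log2 fold change of -0.29; limma on log2(FPKM + 1) called 3135 higher and 6962 lower, with a median of -0.18. Scaled to the summed adipocyte genes, a setting added after the data had been seen, 105 genes were higher and 14417 (88.9%) lower, with a median of -1.72. Without the 2 animals with intestine transcripts 5338 genes were higher and 5173 lower, and without the 4 animals 4654 and 5005. The L code of the library names, whose meaning the labels do not give, was partly confounded with depot. Libraries with L1 or L8 were all gonadal and those with L4 all intestinal. Only L2 and L3 held both depots, with male 3 and male 4 as their gonadal libraries. A fit with no animal block and this code as a term cannot separate the code from the fewer comparable libraries. It called 2877 genes, and 58 of the 177 named calls were lost. Among the genes described below these were Adipoq (adjusted p = 0.086), Nnat, Glycam1, Retnla, Col14a1, Prox1, Slc2a4, Per1, Per2, Cilp and Fn1. Log2 fold changes are gonadal over intestinal, with the standard error of the fit, and p-values measure the spread between these 7 animals.

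Lep, the gene of leptin, was at 511 to 992 CPM (median 634) in the gonadal libraries and at 42.4 to 245 CPM (median 81.3) in the intestinal ones. The lowest gonadal library was thus above the highest intestinal library, male 2, and every one of the 7 animals had more in its gonadal fat. The log2 fold change was 3.05 ± 0.265 (adjusted p = 0.000121). It was 3.43 ± 0.376 in females and 2.75 ± 0.321 in males, and the difference between the sexes did not pass the test (adjusted p = 0.646). Adipoq, the gene of adiponectin, ranged from 2803 to 4246 CPM (median 3440) in gonadal and from 500 to 2705 CPM (median 1396) in intestinal fat. The depots again did not overlap, but the gap was narrower, at a log2 fold change of 1.44 ± 0.265 (adjusted p = 0.00211). Lep per 100 Adipoq, both in CPM, was 13.1 to 35.4 in gonadal and 3.89 to 12.3 in intestinal libraries. The ratio was higher in the gonadal fat of 7 of 7 animals, by a log2 of 1.6 ± 0.38 (SD, n = 7 animals; exact permutation test, two-sided, p = 0.0156, the smallest possible with 7 pairs). Cd79a, part of the B cell receptor, ran the opposite way, with 1.57 to 4.52 CPM (median 1.71) in gonadal and 24.2 to 327 CPM (median 204) in intestinal libraries. The lowest intestinal values were male 4 (24.2 CPM) and female 3 (35.5 CPM), and the log2 fold change was -6.20 ± 0.511 (adjusted p = 0.000105).

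**Figure D2:**
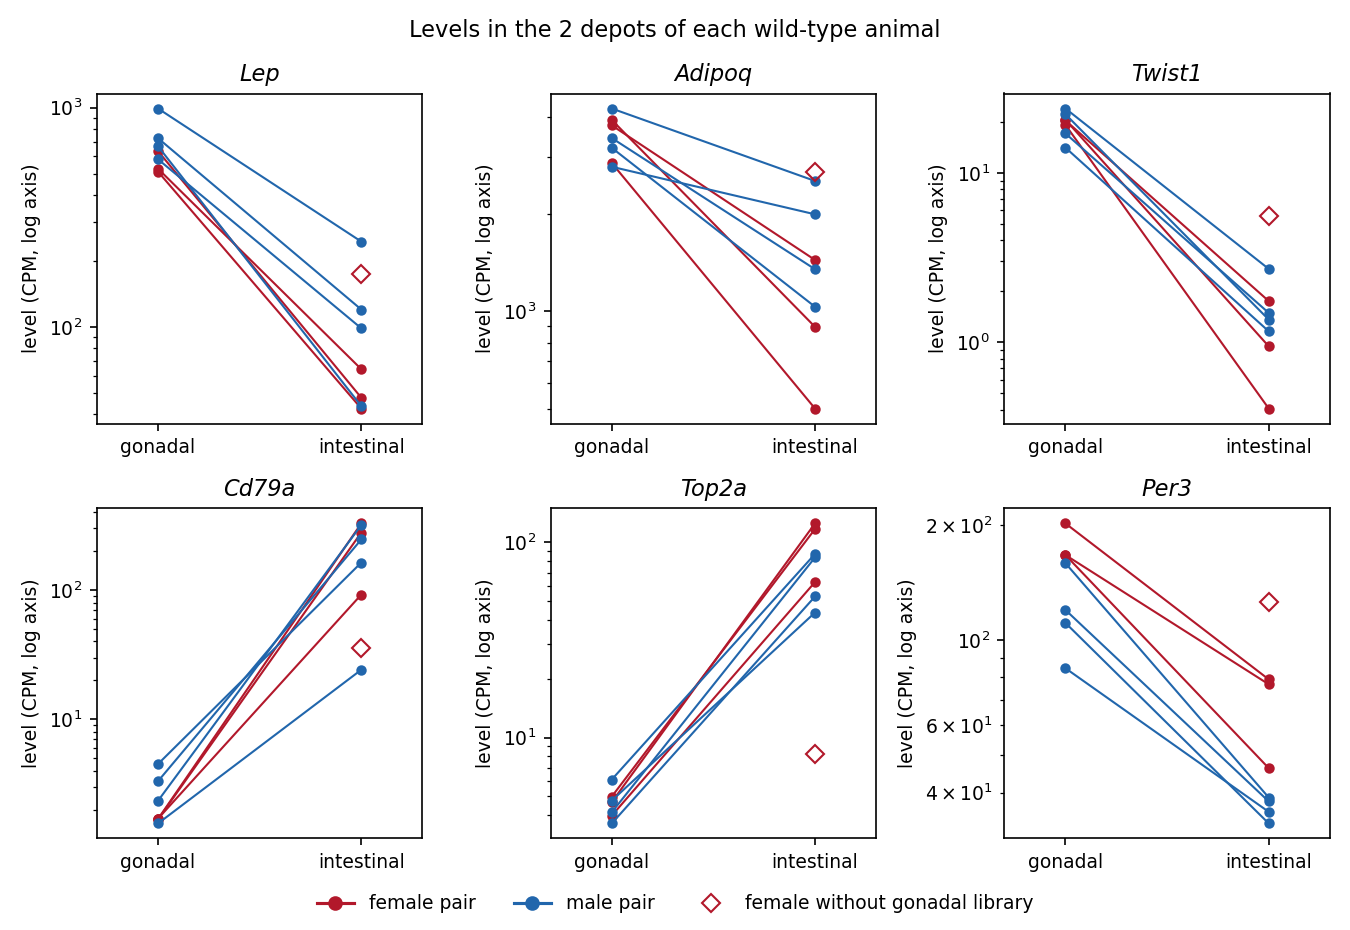
Levels of Lep, Adipoq, Twist1, Cd79a, Top2a and Per3 in CPM (log axis) in gonadal and intestinal fat, with a line joining the libraries of each of the 7 animals and an open diamond for the unpaired intestinal female 3. Every line of Lep, Adipoq, Twist1 and Per3 falls from gonadal to intestinal fat, and every line of Cd79a and Top2a rises.

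The promoter of Lep is shown because this gene had the largest rise in the adipokine list. The RefSeq sequence (mouse build GRCm38.p6, chr6:29059971-29060270, plus strand, 250 bases before to 50 after the start) holds 1 match to the palindrome TTGCGCAA, an 8-letter form of the site of C/EBP factors, which begins 55 bases before the start and is in capitals. That word is in 60 of 32851 single promoters of the same length (0.183%). It is in 1 of 18 adipokine genes with a promoter in the table, counted in any promoter of a gene, and that gene is Lep. Cebpa, which encodes an adipocyte C/EBP factor, was at 655 to 857 CPM in gonadal and 122 to 468 CPM in intestinal fat. Whether the word or Cebpa bears on the level of Lep was not tested.
Lep: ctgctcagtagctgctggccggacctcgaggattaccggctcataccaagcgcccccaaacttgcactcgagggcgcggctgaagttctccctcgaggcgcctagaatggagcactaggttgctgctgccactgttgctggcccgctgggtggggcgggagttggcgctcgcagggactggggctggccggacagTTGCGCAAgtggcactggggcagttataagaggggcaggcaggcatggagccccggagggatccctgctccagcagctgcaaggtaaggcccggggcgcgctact

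Of 21 genes of adipocyte identity, 18 were higher and none lower (median log2 fold change 1.69 against -0.01 over all genes), with 13 having all gonadal libraries above all intestinal ones. The counts were 18 and 0 on the library total also, while on the adipocyte scale, which centres on these genes, 2 were higher and 3 lower. Adrb3, the beta-adrenergic receptor through which catecholamines start lipolysis in white fat, had 687 to 1442 CPM (median 1110) in gonadal and 85.5 to 599 CPM (median 239) in intestinal libraries. These ranges did not overlap (log2 fold change 2.22 ± 0.23, adjusted p = 0.000197). Fabp4, the fatty acid carrier of adipocytes, had 10318 to 16335 CPM against 1722 to 7322 CPM, and Lpl, the lipase that frees fatty acids from lipoproteins, 11236 to 15598 CPM against 1215 to 5892 CPM. The 3 genes that did not pass were Cidea (-1.03, adjusted p = 0.2), Gpd1 (0.44, 0.361) and Thrsp (0.69, 0.13).

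Genes of lipolysis and fatty acid uptake were higher in gonadal fat for 20 of 26 and lower for 2 (median 1.34), with 18 and 2 on the library total, but 2 were higher and 11 lower on the adipocyte scale. G0s2, an inhibitor of the triglyceride lipase Pnpla2, had 132 to 439 CPM (median 204) in gonadal and 21.4 to 120 CPM (median 36.8) in intestinal fat. It rose by more than the list's median, at 2.55 ± 0.234 (adjusted p = 0.00014), whereas Pnpla2 itself was at 1.24 (adjusted p = 0.00418). Gpihbp1, which holds lipoprotein lipase on capillaries, was at 75.3 to 125 CPM against 12.5 to 57.1 CPM. Adra2a, an adrenergic receptor that restrains lipolysis, was among the lower genes (-0.71, adjusted p = 0.00929), at most 4.54 CPM in any library.

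Among the adipokines 14 of 22 tested were higher and 2 lower (median 0.84), of 26 in the list. The library total gave 11 and 2, and the adipocyte scale 1 and 13, the 1 being Lep at 1.34 (adjusted p = 0.000258). Retn, the gene of resistin, had 1482 to 2918 CPM in gonadal and 354 to 1143 CPM in intestinal fat. Rbp4, the retinol carrier, followed at 403 to 867 CPM against 52.5 to 253 CPM. The 2 lower genes, Tnf (-3.22, adjusted p = 0.000765) and Ccl2 (-1.42, 0.00149), are inflammatory signals rather than adipocyte hormones.

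In the list of fatty acid and triglyceride synthesis 9 of 25 genes were higher and none lower (median 0.49); on the library total 6 were higher and 1 lower, and on the adipocyte scale none was higher and 21 lower. Without the 4 animals with pancreas or intestine transcripts 14 were higher and none lower (median 1.32). The called genes included Srebf1, the sterol-response factor that drives lipogenic genes (1.25, adjusted p = 0.00129), Mogat1 (1.56, 0.000302) and Dgat2 (1.22, 0.013). Fasn, the fatty acid synthase, spread from 1646 to 26142 CPM in the gonadal libraries and from 2202 to 11909 CPM in the intestinal ones, and its difference of 0.19 did not pass (adjusted p = 0.826). Acly, the ATP citrate lyase that feeds it, spread as widely, from 193 to 5871 CPM and from 374 to 3192 CPM (-0.45, adjusted p = 0.625). The summed list was at 110941 and 116879 CPM in gonadal females 1 and 2 and at 33652 to 52989 CPM in the other 5 gonadal libraries.

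Mitochondrial respiration, 27 genes of the respiratory chain and citrate cycle, had 18 higher and none lower (median 0.63), but 7 on the library total and none on the adipocyte scale, where 26 were lower. Without the 2 animals with intestine transcripts all 27 were higher (median 0.92). Ndufb8, a subunit of complex I, was at 178 to 281 CPM (median 249) in gonadal and 74.2 to 137 CPM (median 99) in intestinal fat. Its ranges did not overlap, with a log2 fold change of 1.25 ± 0.185 (adjusted p = 0.00081). Insulin signalling had 15 of 23 genes higher and none lower (median 0.80), 9 and 0 on the library total and 0 and 15 on the adipocyte scale. Pik3r1, the regulatory subunit of the insulin-responsive PI3-kinase, had 349 to 513 CPM (median 404) against 160 to 198 CPM (median 182), and both depots were tight. Its log2 fold change was 1.19 ± 0.1 (adjusted p = 0.000108). Irs1, Irs2 and Irs3, the docking proteins of the insulin receptor, were higher by 1.36, 1.38 and 1.40, while Akt1 (-0.07, adjusted p = 0.55) and Foxo1 (0.05, 0.74) did not pass. In glucose use the list split, with 7 of 24 genes higher and 4 lower (4 and 10 on the library total, 0 and 21 on the adipocyte scale): the insulin-regulated transporter Slc2a4 was at 1.35 (adjusted p = 0.00358), and the ubiquitous transporter Slc2a1 at -0.55 (0.00869).

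**Figure D3:**
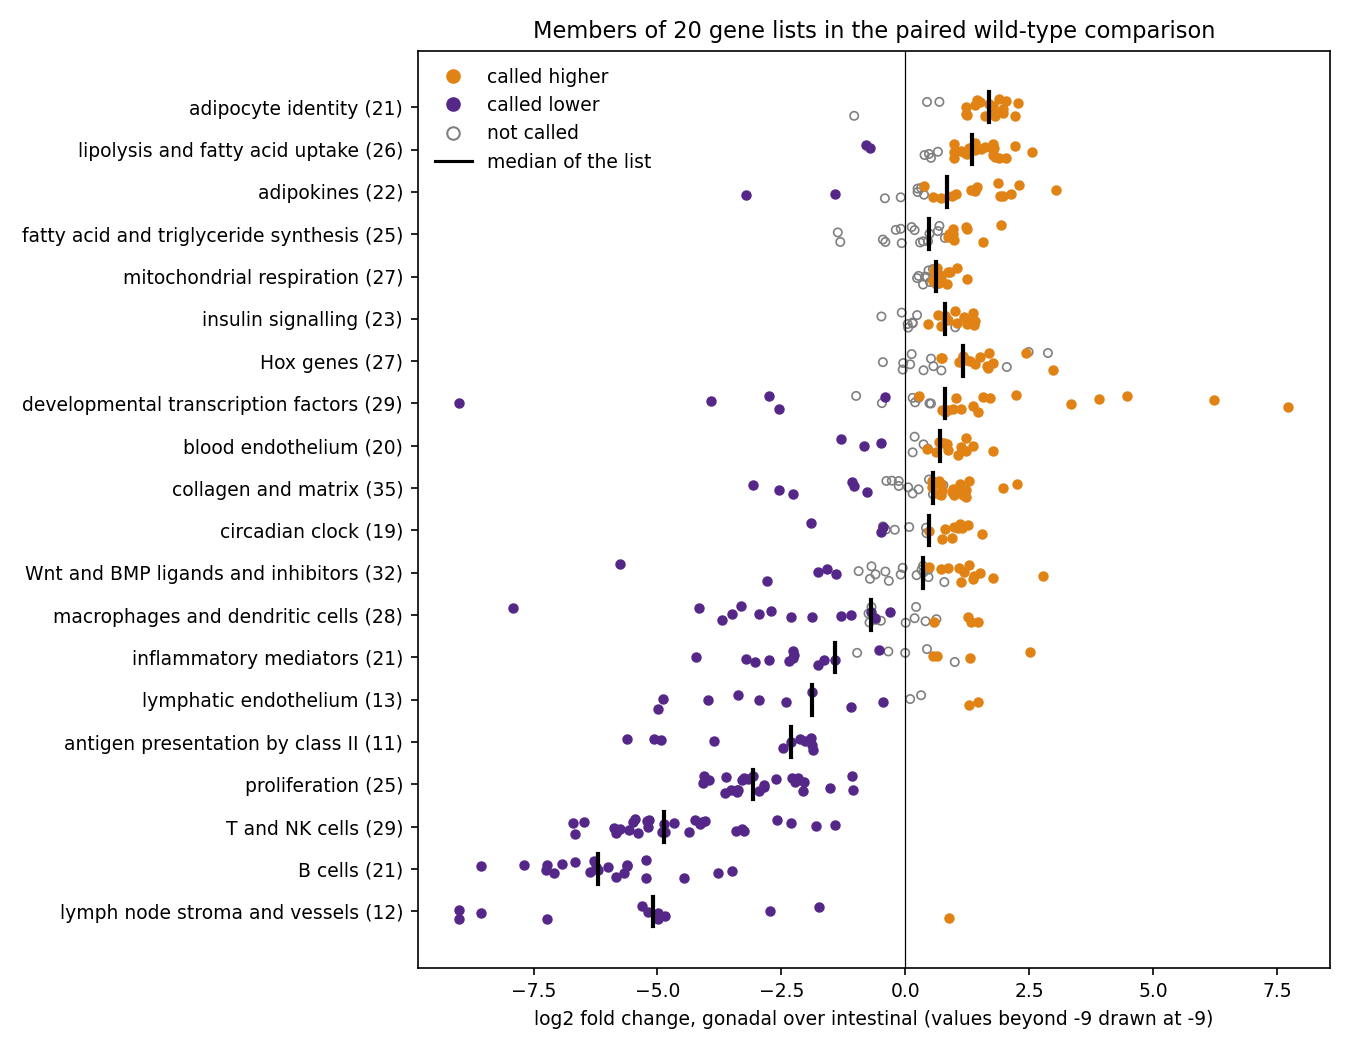
Log2 fold change, gonadal over intestinal, of the tested members of 20 gene lists, 1 point a gene, with values below the left end drawn at it. Adipocyte genes lie to the right of 0 (median 1.69) and B cell, T cell, class II and proliferation genes to the left.

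Of 42 transcription factors of tissue patterning 29 passed the filter on low counts; 17 were higher and 5 lower in gonadal fat (14 and 5 on the library total, 5 and 16 on the adipocyte scale). Tbx18, a T-box factor of coelomic and urogenital mesenchyme, was at 5.68 to 8.18 CPM (median 6.68) against 0.0717 to 0.693 CPM (median 0.397). Twist1, a basic helix-loop-helix factor of mesenchyme, was at 14.1 to 24 CPM (median 20.4) against 0.406 to 5.57 CPM (median 1.42). Intestinal female 3 had the 5.57 CPM and the next highest intestinal library 2.71 CPM. Their log2 fold changes were 4.47 ± 0.462 and 3.91 ± 0.296 (adjusted p = 0.000198 and 8.65e-05). Neither gene overlapped between the depots, and both were also higher on the adipocyte scale, by 2.86 and 2.24.

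Emx2, a homeobox gene of the urogenital system, was nearly confined to one depot. The intestinal libraries of the 7 paired animals held 5 counts in all and their gonadal libraries 1117. The ratio was 271 (exact 95% interval 116 to 836, for counting error only). Intestinal female 3, which is unpaired and not in these counts, had Emx2 at 0.13 CPM. In gonadal fat it was at 5.06 to 9.38 CPM in the 3 females and 1.09 to 4.90 CPM in the 4 males, and the difference of its depot contrast between the sexes did not pass (adjusted p = 0.856). Nkx2-3, a homeobox gene of gut mesenchyme, spleen and mucosal vessels, was its mirror image. All 8 intestinal libraries held it, at 7.5 to 33.8 CPM, and the gonadal libraries held 1 count in all. Over the 7 paired animals the ratio was 3280 (exact 95% interval 588 to 129604). Other factors of gut and splanchnic mesoderm were lower in gonadal fat on the TMM scale. Foxf1 was at 0.46 to 2.77 CPM against 6.31 to 9.60 CPM (log2 fold change -2.74, adjusted p = 0.000469), Hand2 at -2.55 (0.00052) and Gata4 at -3.92 (0.00601). Gata4 reached 40.5 CPM in 1 intestinal library and was 0.195 CPM in the lowest. Gata6, its relative, was at 13.4 to 25.1 CPM against 10.2 to 34.3 CPM and did not pass (adjusted p = 0.518). Wt1, the Wilms tumour factor of mesothelium and visceral fat progenitors, was at 8.74 to 30.9 CPM against 4.25 to 58.5 CPM (1.03, adjusted p = 0.0246).

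The Hox genes, which set position along the body axis, had 15 of 27 tested members higher and none lower in gonadal fat (median 1.17; 12 and 0 on the library total, 1 and 11 on the adipocyte scale), and 11 of the 38 in the list were below the filter. The differences were uneven across the clusters. Hoxc8 was at 48 to 173 CPM in gonadal and 10.6 to 56.3 CPM in intestinal fat (2.44, adjusted p = 0.000564), and Hoxc9 at 4.64 to 8.53 CPM against 0.185 to 3.23 CPM (2.98, 0.00189). Hoxa7 had 29.1 to 43.3 CPM (median 31.2) against 6.55 to 32 CPM (median 11), with intestinal female 3 alone reaching the gonadal range. In contrast Hoxb4, Hoxb6, Hoxb7 and Hoxb8 were within 0.13 of 0 and did not pass, at adjusted p-values of 0.434 to 0.873. Hoxa10, a posterior gene of the female reproductive tract, separated the sexes in gonadal fat. It was at 12.8 to 24.1 CPM in the 3 females and at 0.276 to 2.20 CPM in the 4 males. Intestinal libraries had 0 to 4.97 CPM, and the depot contrast was 4.87 ± 1.378 in females (adjusted p = 0.0231) and -0.58 ± 1.371 in males (0.755), a difference that did not pass (0.372).

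**Figure D4:**
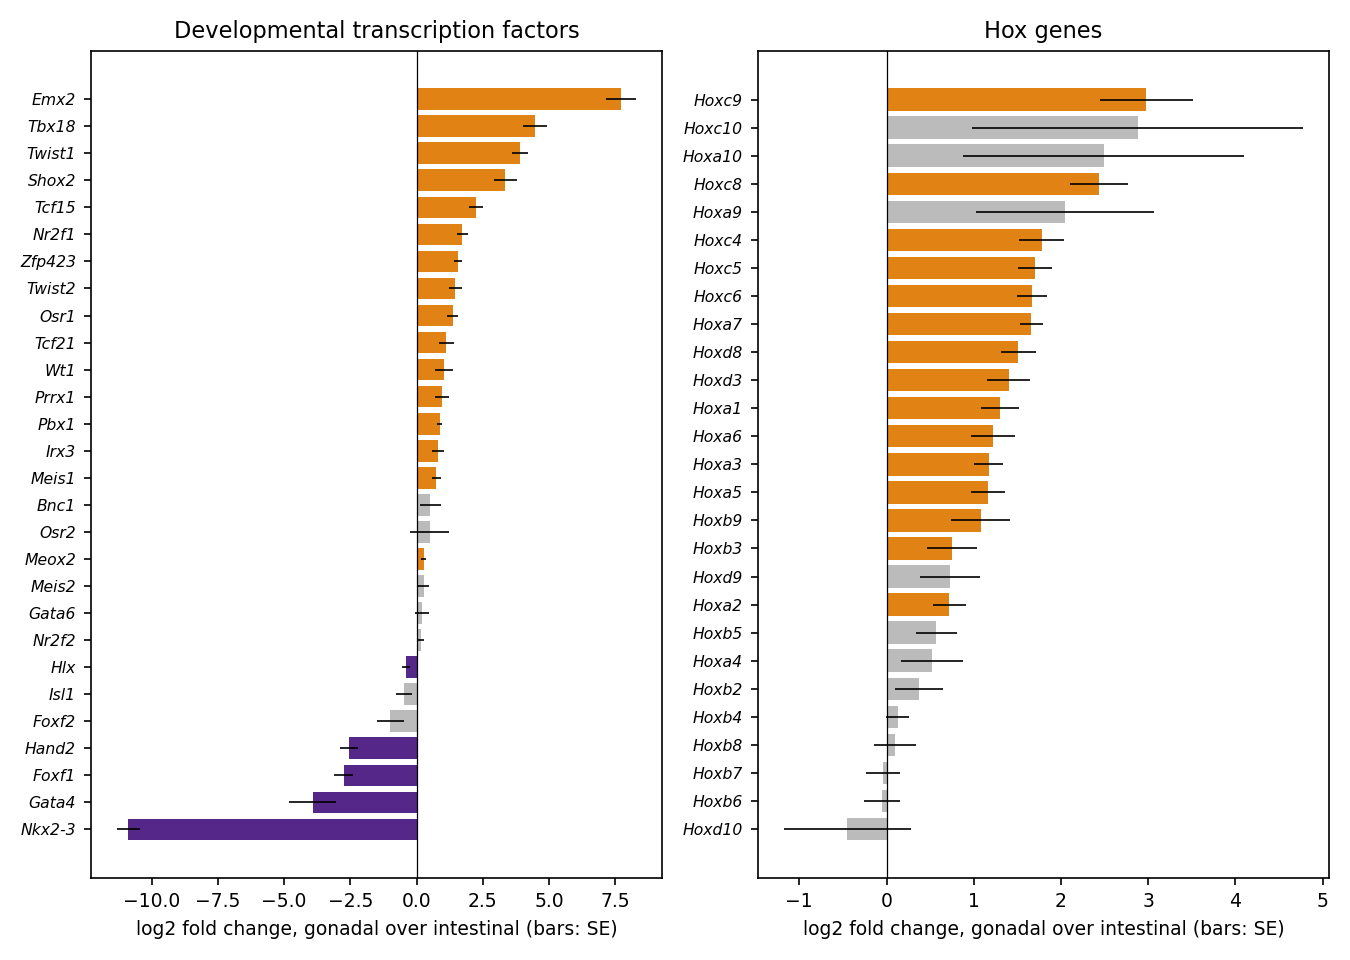
Log2 fold change, gonadal over intestinal, with the standard error of the edgeR fit, for developmental transcription factors (28 of the 29 tested) and Hox genes. Tbx18 (4.47) and Twist1 (3.91) lie far to the right, and Foxf1, Hand2 and Gata4 fall. Nkx2-3 and Emx2, with 1 and 5 counts in 1 depot of the paired animals, are drawn at fitted values, which are no bounds.

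Lymphoid genes were lower in gonadal fat on TMM and the library total, without the block, and without the 2 or the 4 animals. They were lower on the adipocyte scale too, but that scale moved the median of all genes to -1.72. A gene lower on TMM could hardly be higher there. All 21 B cell genes were lower (median -6.20), with 20 not overlapping, and all 29 T and NK cell genes (median -4.87), with 22 not overlapping. Cr2, the complement receptor of B cells and follicular dendritic cells, was at 0.168 to 0.359 CPM (median 0.241) in gonadal and 6.28 to 213 CPM (median 124) in intestinal fat. Cd3e, part of the T cell receptor, was at 0.718 to 1.37 CPM (median 0.952) against 5.11 to 52.8 CPM (median 30.1). For both genes intestinal female 3 and male 4 were the lowest of the 8. Their log2 fold changes were -8.55 ± 0.666 and -4.91 ± 0.421 (adjusted p = 9.24e-05 and 0.000116).

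Genes of lymph node stroma and vessels were lower for 11 of 12 on the TMM scale (median -5.09, also with Glycam1 at its bound). Glycam1, the ligand on high endothelial venules that lets lymphocytes enter a lymph node, had no count in any gonadal library and 0.271 to 647 CPM in the intestinal ones. Over the 7 paired animals it was thus at least 19489-fold lower, with the floor at 3 counts over the 7 gonadal libraries. Its level differed widely within the intestinal depot, with male 4 at 0.271 CPM and female 3 at 2.25 CPM against 36.6 CPM or more in the other 6. Madcam1, the addressin of mucosal vessels, was at 0.0276 to 0.131 CPM (median 0.0575) in gonadal fat and 0.13 to 20.4 CPM (median 8.92) in intestinal fat, where female 3 was the lowest, within the gonadal range (-7.23 ± 0.353, adjusted p = 2.81e-05). All 11 genes of antigen presentation by class II were lower (median -2.31) and none overlapped. Of 11 plasma cell genes 7 were lower and 1 higher; Jchain, the joining chain of secreted antibodies, was at 13.7 to 59.0 CPM against 185 to 963 CPM.

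Proliferation genes moved with the lymphoid ones: 25 of 25 were lower in gonadal fat (median -3.08). The count was the same on the library total and without the 2 or the 4 animals. It was also the same on the adipocyte scale, which lowers nearly all genes. Top2a, the topoisomerase that untangles chromosomes, was at 3.63 to 6.09 CPM (median 4.67) in gonadal and 8.21 to 125 CPM (median 73.2) in intestinal libraries. The ranges did not overlap, but intestinal female 3, at 8.21 CPM, was close to the gonadal level. The log2 fold change was -4.09 ± 0.194 (adjusted p = 2.54e-05). Ccnb1, cyclin B of mitotic entry, followed it at 0.616 to 1.55 CPM (median 1.28) against 1.69 to 22.3 CPM (median 12.8), and -3.61 ± 0.225 (adjusted p = 6.39e-05). The summed proliferation list was 139 to 163 CPM in gonadal libraries and 186 (female 3), 408 (male 4) and 557 to 1160 CPM in intestinal ones; the same 2 libraries had the lowest B cell sums. Without the 4 animals with pancreas or intestine transcripts the median was -3.51. What part lymphocytes and lymph node tissue have in this list was not tested.

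The promoters of Top2a and Ccnb1 are shown because the list moved as a whole. The word CCAAT, the site of NF-Y, searched on both strands, is in capitals (on the other strand it reads ATTGG). The Top2a promoter (chr11:99024140-99024439, minus strand, GRCm38.p6) holds 6 matches and the Ccnb1 promoter (chr13:100786437-100786736, minus strand) 2, at 99 and 67 bases before the start. A CCAAT is in 18 of the 20 proliferation genes that have a promoter in the table (25 in the list). It is also in 13 of 16 clock genes, both counted in any promoter of a gene, and in 37.4% of all single promoters. Whether the word bears on these levels was not tested.
Top2a: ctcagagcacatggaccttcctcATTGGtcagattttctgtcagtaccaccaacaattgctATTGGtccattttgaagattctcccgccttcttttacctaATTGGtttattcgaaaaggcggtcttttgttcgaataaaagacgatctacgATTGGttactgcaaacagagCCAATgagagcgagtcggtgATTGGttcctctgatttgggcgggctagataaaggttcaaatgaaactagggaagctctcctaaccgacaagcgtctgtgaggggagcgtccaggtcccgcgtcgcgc
Ccnb1: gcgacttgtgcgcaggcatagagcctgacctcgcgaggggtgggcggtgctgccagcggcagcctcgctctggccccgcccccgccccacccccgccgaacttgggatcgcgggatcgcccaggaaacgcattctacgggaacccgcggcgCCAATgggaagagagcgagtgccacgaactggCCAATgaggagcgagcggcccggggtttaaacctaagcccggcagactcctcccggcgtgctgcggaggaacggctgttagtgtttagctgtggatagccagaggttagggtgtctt

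Macrophage and dendritic cell genes were mixed, with 4 of 28 higher and 14 lower (median -0.69; 3 and 18 on the library total, 0 and 24 on the adipocyte scale). Timd4, a receptor of resident macrophages for dying cells, was at 1.35 to 5.13 CPM (median 2.66) in gonadal and 8.36 to 54.9 CPM (median 32.7) in intestinal fat (-3.70 ± 0.481, adjusted p = 0.000472). Marco, a scavenger receptor of lymph node and marginal zone macrophages, was at 0.588 to 1.93 CPM against 5.22 to 757 CPM. Genes of dendritic cells were lower too, among them Flt3 (-4.17, adjusted p = 0.000814), Xcr1 (-3.32, 0.0014) and Siglech (-3.50, 0.00211). Clec10a and Retnla, genes of alternatively activated macrophages, were higher on the TMM scale but not on the adipocyte scale, with Clec10a at 46.5 to 101 CPM (median 70.3) against 21.2 to 51.4 CPM (median 30.2) and Retnla at 141 to 410 CPM against 53.1 to 546 CPM (1.32, adjusted p = 0.000418). Mrc1, the mannose receptor, was at 63.0 to 155 CPM against 50.9 to 140 CPM and did not pass (0.01, adjusted p = 0.978). Complement component C1q, made by macrophages, did not pass for C1qa, C1qb or C1qc either (-0.49 to -0.68).

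Inflammatory mediators were lower for 12 of 21 and higher for 4 (median -1.42; 2 higher and 13 lower on the library total, 1 and 16 on the adipocyte scale). Il33, an alarmin of stromal cells that sustains innate lymphoid and regulatory T cells in fat, was at 3.45 to 14.7 CPM (median 7.20) in gonadal and 37.5 to 111 CPM (median 52.7) in intestinal fat. The depots did not overlap, and the log2 fold change was -3.04 ± 0.338 (adjusted p = 0.000255). Hp, the haemoglobin-binding acute-phase protein haptoglobin, which adipocytes also make, was the main gene in the other direction: 637 to 3467 CPM (median 2555) against 115 to 790 CPM (median 277). The 3 gonadal females (637 to 994 CPM) lay below the 4 gonadal males (2555 to 3467 CPM), yet each animal had more in its gonadal fat, by 2.41 in females and 2.61 in males. In the complement list 7 of 23 genes were higher and 5 lower (6 and 10 on the library total, 0 and 18 on the adipocyte scale), with Cfd, the adipocyte protease adipsin, at 1.98 (adjusted p = 0.00035) and the regulator Cd55 at -1.82 (0.00128).

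Vessels divided by type. Of 20 blood endothelial genes 13 were higher in gonadal fat and 3 lower (median 0.71; 10 and 3 on the library total, 0 and 16 on the adipocyte scale), whereas of 13 lymphatic endothelial genes 2 were higher and 9 lower (median -1.88; 2 and 9, and 0 and 11). Aplnr, the apelin receptor of venous and sprouting endothelium, was at 28.1 to 69.5 CPM (median 32.8) against 11.5 to 20.7 CPM (median 15.6), and did not overlap (1.37 ± 0.177, adjusted p = 0.000459). Plvap, the protein of endothelial fenestrae, went down with no overlap, from 84.8 to 146 CPM (median 110) in intestinal to 32.2 to 69 CPM (median 45.9) in gonadal fat. Prox1, the factor that specifies lymphatic endothelium, was at 0.261 to 3.56 CPM (median 0.949) in gonadal and 7.74 to 41.4 CPM (median 15.6) in intestinal fat (-3.98 ± 0.756, adjusted p = 0.00251). Reln, secreted by collecting lymphatics, was at 1.96 to 13.6 CPM against 17.4 to 39.2 CPM. Vegfd, a growth factor for lymphatic vessels, ran against its own list at 1.46 (adjusted p = 0.00021), and at 31.8 to 46.3 CPM against 9.46 to 31.8 CPM. The summed lymphatic list was lowest in intestinal female 3 (411 CPM) among the intestinal libraries, as was the T and NK cell sum (146 CPM), and the part of lymph node tissue in these differences was not tested.

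Stromal genes showed no single direction. Collagen and matrix genes had 18 of 35 higher and 6 lower (median 0.56), 10 and 8 on the library total, 0 and 30 on the adipocyte scale, and 6 and 5 with no animal block. Basement membrane collagens were among the higher ones: Col4a2 at 1.17 (adjusted p = 0.00409), Col15a1 at 1.97 (0.00304) and Col18a1 at 1.22 (0.000806). The fibril-associated collagens Col12a1 and Col14a1 were lower, Col12a1 at 1.93 to 10.9 CPM (median 4.26) in gonadal and 22.1 to 59.1 CPM (median 30.1) in intestinal fat. Genes of adipose progenitors and fibroblasts had 6 of 24 higher and 11 lower, 6 and 11 on the library total and 1 and 21 on the adipocyte scale. Dpp4, which marks early interstitial progenitors, was at 8.54 to 45.4 CPM (median 19.4) against 56.3 to 323 CPM (median 87.7; -2.51 ± 0.317, adjusted p = 0.000426), while Pdgfra, the general progenitor marker, was at 51.3 to 118 CPM against 43.3 to 116 CPM (0.15, adjusted p = 0.446). Fgf10, a stromal growth factor needed for fat development, was at 61.9 to 126 CPM (median 89.3) in gonadal and 7.24 to 22.3 CPM (median 15.1) in intestinal fat and was higher on all 3 scales (2.76 ± 0.297, adjusted p = 0.000227 on TMM).

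Mesothelium covers both depots, and its list gave 5 of 24 genes higher and 3 lower (1 and 4 on the library total, 0 and 18 on the adipocyte scale; no gene higher and 4 lower without the block). Without the 4 animals with pancreas or intestine transcripts 10 were higher and 3 lower (median 1.13). Defining genes such as Msln (0.52, adjusted p = 0.298) and Upk3b (0.54, 0.312) did not pass. Aldh1a2, the enzyme that makes retinoic acid, was lower with no overlap, at 6.38 to 16.1 CPM (median 9.48) against 34.5 to 72 CPM (median 46.1; -2.21 ± 0.223, adjusted p = 0.000183). Among Wnt and BMP signals 12 of 32 were higher and 5 lower, but 10 and 7 on the library total, 1 and 22 on the adipocyte scale and 7 and 7 without the block. The BMP inhibitors split: Nog was at 1.26 to 8.24 CPM (median 2.77) in gonadal and 0.184 to 1.06 CPM (median 0.363) in intestinal fat (2.78 ± 0.357, adjusted p = 0.00045), and Grem1 at 0 to 3.23 CPM against 3.10 to 81.4 CPM (-5.76, adjusted p = 0.00283).

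The list of sex steroid and glucocorticoid handling had 7 of 15 tested genes higher and none lower (5 and 1 on the library total, 0 and 11 on the adipocyte scale). Esr1, the oestrogen receptor, was at 127 to 152 CPM in the gonadal fat of females and 36.7 to 70.7 CPM in that of males. The intestinal libraries had 21.9 to 86.6 CPM, female 3 being the highest, and the depot contrast was 1.54 ± 0.239 (adjusted p = 0.000969). Nr3c1, the glucocorticoid receptor, was higher by 0.52 (adjusted p = 0.00291).

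Circadian clock genes had 10 of 19 higher and 3 lower (median 0.49), 9 and 4 on the library total and 0 and 17 on the adipocyte scale. In the clock, Arntl and Clock activate the Per and Cry genes through E-boxes, and Per and Cry proteins repress them; the hour of sampling is not given in the sources used here. Per3 was at 84.5 to 202 CPM (median 159) in gonadal and 33.2 to 126 CPM (median 42.5) in intestinal fat, and the 126 CPM came from female 3 alone, the next being 79.0 CPM. All 7 animals had more in gonadal fat (1.55 ± 0.133, adjusted p = 0.000112). Per1, Per2 and the REV-ERB repressor Nr1d1 were higher by 0.81, 0.98 and 1.26. Arntl, the activator, ran opposite, at 0.936 to 9.66 CPM against 3.53 to 17.4 CPM (-1.90, adjusted p = 0.00457), and Clock did not pass (0.08, adjusted p = 0.487).

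Promoters of a clock gene from each side are shown. Both genes have 2 starts in the table, and the start with most matches to the word was chosen. In that of Per1 (chr11:69098699-69098998, plus strand, 1 of 2 starts in the RefSeq table) the E-box CACGTG occurs once, 166 bases before the start, and in that of Arntl (chr7:113207261-113207560, plus strand, 1 of 2 starts) the ROR response element, the site that REV-ERB and ROR receptors share, occurs 2 times, the first 10 bases before the start and the second after it. Capitals mark these words, searched on both strands. CACGTG is in 5 of 16 clock genes, counted in any promoter of a gene, and in 7.15% of all single promoters. The ROR word is in 20 promoters (0.0609%) and in 1 of 16 clock genes, which is Arntl. Whether these words bear on the levels was not tested.
Per1: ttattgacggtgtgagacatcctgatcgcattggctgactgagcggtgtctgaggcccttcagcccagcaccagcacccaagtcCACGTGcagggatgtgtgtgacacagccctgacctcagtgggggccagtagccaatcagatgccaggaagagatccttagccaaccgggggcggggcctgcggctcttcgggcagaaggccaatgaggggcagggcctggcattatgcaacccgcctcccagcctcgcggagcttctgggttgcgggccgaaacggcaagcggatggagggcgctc
Arntl: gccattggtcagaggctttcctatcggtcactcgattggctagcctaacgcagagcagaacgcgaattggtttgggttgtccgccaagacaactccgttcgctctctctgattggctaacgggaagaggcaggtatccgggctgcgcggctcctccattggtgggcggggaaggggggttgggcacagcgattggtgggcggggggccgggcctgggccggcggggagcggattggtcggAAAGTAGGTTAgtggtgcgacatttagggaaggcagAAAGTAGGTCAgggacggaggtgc

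Relative to the adipocyte genes, on the scale added after the data had been seen, 105 genes (0.647% of those tested) were still higher in gonadal fat, and 3335 of the 4793 genes that were higher on the TMM scale became lower. Emx2, Tbx18, Twist1, Lep and Fgf10, described above, were among them. Sncg, gamma-synuclein, which adipocytes express, was at 308 to 668 CPM (median 374) against 11.4 to 103 CPM (median 32). It was higher by 3.82 ± 0.293 on the TMM scale and by 2.12 on the adipocyte scale. Klf14, a regulator of adipocyte genes, was at 5.17 to 11.7 CPM (median 5.91) against 0.0478 to 1.81 CPM (median 0.307), higher by 4.47 and by 2.88. Nnat, an endoplasmic reticulum proteolipid, was at 268 to 2104 CPM (median 1057) in gonadal and 9.18 to 369 CPM (median 82.7) in intestinal fat, and higher by 1.89 on the adipocyte scale. Tshr and Adrb3, receptors that raise cyclic AMP in adipocytes, were higher by 0.56 and 0.51, and Cav1, the protein of adipocyte caveolae, by 0.59. The 21 genes that set this scale include Adrb3, and their largest TMM log2 fold change, 2.27, equals that of Tshr. Since these genes centre the scale, some can lie above it by construction, and 2 were higher and 3 lower.

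The sexes were compared within the same model. In females 7989 genes (49.2%) differed between the depots, 25.3% higher and 24% lower in gonadal fat, and in males 6399 (39.4%), 19.6% higher and 19.8% lower. Leaving out 1 animal gave 3968 to 8546 genes in females, the lowest without female 1 of both depots, and 2831 to 7316 in males, the lowest without gonadal male 4 and intestinal male 1. For 14 genes (0.0863%) the difference between the sexes itself passed. It was positive, females minus males, for 11 (0.0678%) and negative for 3 (0.0185%). Nrn1, neuritin, was at 30.6 to 68.5 CPM in the gonadal fat of the 3 females and 0.801 to 3.20 CPM in that of the 4 males, while intestinal libraries of both sexes had 3.44 to 6.28 CPM. The difference of the contrasts was 4.92 ± 0.508 (adjusted p = 0.0457). C1qtnf3, an adipokine of the C1q family, was at 9.28 to 35.8 CPM in gonadal females and 0.632 to 1.68 CPM in gonadal males. Ptger3, a prostaglandin E receptor that restrains lipolysis, was higher in gonadal fat of females by 1.55 and lower in that of males by a log2 fold change of -0.89. Fkbp5, which glucocorticoid receptors induce, ran the other way, at 32 to 53.0 CPM in gonadal females and 97.6 to 149 CPM in gonadal males (-1.98 ± 0.232, adjusted p = 0.0469). All of these calls are marginal, since edgeR called 0 genes whichever 1 of the 7 animals was left out, 1731 genes had an unadjusted p under 0.05 with all animals, and DESeq2 called 494.

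The 8 Q175 animals gave the same comparison in libraries not used above. Of 16344 genes tested there 11248 (68.8%) differed between the depots, 33.7% higher and 35.1% lower in gonadal fat. Of the 9546 genes called in wild type and tested in Q175, 8125 (85.1%) were called in the same direction, which is 73.4% of the 11074 Q175 calls tested in wild type, and 13 in the opposite one. Across 16007 genes the log2 fold changes had a Pearson r of 0.896, where genes are not independent replicates. Lep was at 800 to 1304 CPM in gonadal and 61.4 to 372 CPM in intestinal fat of Q175 mice (2.65 ± 0.365, adjusted p = 0.000411), and Nkx2-3 at 0 to 0.0351 CPM and 8.28 to 27 CPM. The lymphoid lists were lower for every tested member there also, 21 of 21 B cell and 29 of 29 T and NK cell genes, as were 25 of 25 proliferation genes. Matrix differed in its count, with 28 of 35 genes higher and 1 lower in Q175 against 18 and 6 in wild type, a difference that was not tested as a list. Fn1, fibronectin, was lower in wild-type gonadal fat (-1.08 ± 0.265, adjusted p = 0.00816) and higher in that of Q175 (0.84 ± 0.218, 0.00753), but the difference did not pass (1.95 ± 0.355, adjusted p = 0.136).

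**Figure D5:**
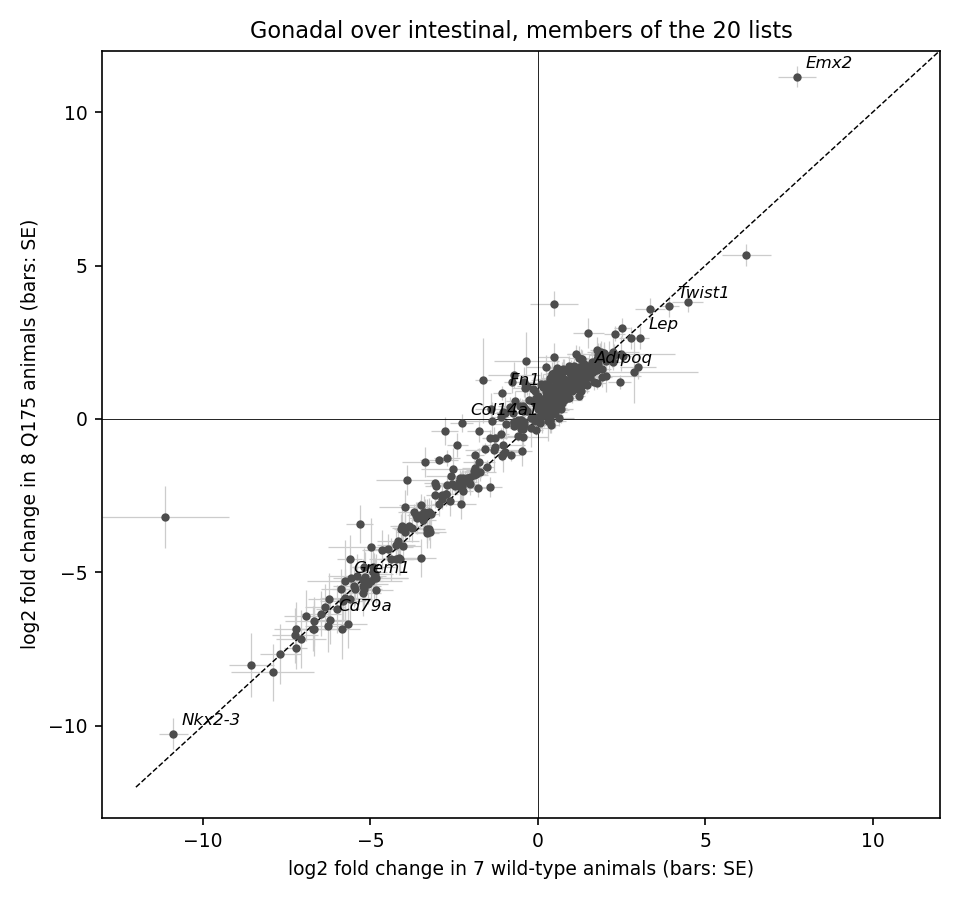
Log2 fold change, gonadal over intestinal, in wild type (x axis) against Q175 (y axis), for the members of the 20 lists tested in both, with standard errors, the names of some genes and the line of equal values. Lep is at 3.05 and 2.65, and Fn1 at -1.08 and 0.84.

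The difference in depot contrast between the genotypes passed for 2 of 16377 genes (0.0122%). CPM are on a separate TMM scale for each genotype, so levels compare between depots and not directly between genotypes. Cilp, a matrix protein of cartilage and fibrous tissue, was at 6.18 to 26.9 CPM in gonadal and 14.8 to 51.9 CPM in intestinal fat of wild-type mice, and at 43.1 to 141 CPM and 33.1 to 66.5 CPM in those of Q175. The difference was 2.16 ± 0.295 (adjusted p = 0.0336). Plxnb2, a semaphorin receptor, was at 39.7 to 86.5 CPM against 89.0 to 150 CPM in wild type and 86.3 to 155 CPM against 97.0 to 119 CPM in Q175 (1.10 ± 0.159, adjusted p = 0.0336). Leaving out 1 animal at a time gave 0 to 38 genes, 2173 genes had an unadjusted p under 0.05, and DESeq2 called 489.

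Set beside the other wild-type tissues, on a TMM scale common to all 11, Lep was highest in gonadal fat, at 602 ± 157 CPM (SD, n = 7), then in intestinal fat at 113 ± 78.3 CPM (n = 8), skin at 52 ± 31.6 CPM and brown fat at 33 ± 23.3 CPM. The highest single libraries of the last 3 were at 267, 97.9 and 77.4 CPM. Nkx2-3 was at 17.2 ± 8.02 CPM in intestinal fat and at most 0.0259 CPM in any library of another tissue. Twist1 was at 17.7 ± 2.83 CPM in gonadal fat, near skin (14.9 ± 3.2), above brown fat (7.65 ± 1.26) and intestinal fat (2.07 ± 1.69). Emx2, at 4.15 ± 3.12 CPM in gonadal fat, was higher in the hippocampus (14.6 ± 2.1) and lower in skin (2.71 ± 0.67).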

How the data were processed

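Total RNA of frozen tissue was sequenced as polyA libraries by standard Illumina protocols, per the labels' protocols; base calling used CASAVA 1.8.2, per the submitters' processing notes. For the aligner, counter, genome build, annotation and strandedness: not given in the sources used here. The authors deposited estimated counts per gene (32.7% of nonzero values are not whole) and FPKM values for 38561 genes, of which 36639 (95%) matched a symbol.

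Estimated counts were rounded and tested with edgeR 4.0.16 (R 4.3.3): TMM scaling, filterByExpr, a robust quasi-likelihood fit with the animal as a block, and Benjamini-Hochberg adjustment over all genes tested, called under 0.05. Single-gene levels are TMM-scaled CPM, with factors computed apart for the 15 wild-type and the 16 Q175 libraries. Pairs come from the animal codes in the library names. Deviations of paired libraries from the mean of their depot and sex correlated at -0.063 to 0.157. Libraries are separate animals within a depot. The sexes and genotypes were compared by interaction terms. Alternatives were no block, RLE factors, DESeq2 1.42.0, no filter, limma 3.58.1 on log2(FPKM + 1) or + 0.1, no block with the L code in the library names as a term, a length trend, library totals, the summed adipocyte genes, and leaving out animals. On simulated counts for the wild-type comparison the test recovered 43% of 100 genes changed 2-fold and 5% of 100 changed 1.5-fold, and called 5 unchanged genes. Only these genes of 16226 were changed, none with low counts, whereas 59.5% were called in the data. Recovery under the adjustment depends on that share, so these values do not carry over to the data. Intervals and floors cover counting error only.

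Named genes were Lep, Adipoq and Cd79a; among called genes with a mean of at least 5 CPM in the higher depot, 1 direction in 7 of 7 animals and an established symbol, the 8 largest and the 8 with the smallest p in each direction; up to 4 members of each list with the smallest p, and members needed to account for a list; and for the sex and genotype differences the 6 with the smallest p in each direction. Cav1 was named after its values were seen. The libraries, markers and lists were chosen with earlier results of these data known. Promoters are from RefSeq (GRCm38.p6). Some genes are not reported here.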

Additional observations from a re-analysis of the deposited data

Results flagged for a closer look

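Dixon's criterion was applied to 137 groups, each the 7 gonadal or the 8 intestinal libraries for a gene or list. In 23 (16.8%) it found 1 library far from the others. Chance gives about 1 in 20 for normal values, but these levels were CPM not on a log scale. Of the 23 groups 8 were gonadal and 15 intestinal, and 13 of the latter concerned intestinal female 3. That library had the highest Twist1 (5.57 CPM), Phka2 (93), Plac9b (28.8), Usp35 (28.9), Slc2a8 (18.8), Azin2 (19.2) and Nkx2-3 (33.8), and the highest sums of developmental transcription factors (599), mesothelium (8715), complement (17543), insulin signalling (4466), Wnt and BMP signals (764) and clock genes (1930 CPM). Gonadal male 1 stood apart in Prr32 (19 CPM), Klf14 (11.7) and the pancreas acinar sum (1131). Gonadal male 3 stood apart in lymph node stroma (302) and collagen and matrix (15747), gonadal male 2 in the testis and vas deferens sum (141, with intestinal female 2 at 140), gonadal female 1 in skeletal muscle (654) and gonadal female 2 in the islet list (6.39 CPM). That list summed to 210 and 198 CPM in intestinal female 2 and male 4, and Ins2 was at most 0.0268 CPM in any library. Intestinal female 2 stood apart in pancreas acinar genes (51264) and intestinal female 4 in Ighv1-12 (77.6 CPM).

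The depot contrast differed between females and males, by the interaction term (females minus males, log2), for genes that include Nrn1 (4.92), Myoc (4.76), C1qtnf3 (4.49), Slc15a5 (4.47), Tnfrsf19 (4.13), Cdh9 (3.81), Lctl (3.66), B3galt1 (2.73), Ptger3 (2.44), Paqr9 (1.72), Fkbp5 (-1.98), Serpina3i (-5.63) and Pde11a (-6.35). It differed between Q175 and wild type for Cilp (2.16) and Plxnb2 (1.10).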

How the results depend on the processing

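Directions of the called named genes reversed in no fit other than the adipocyte scale, where called genes such as Per1 (-0.90, 0.81 on the TMM scale) changed sign. Of 196 named genes 177 were called, and 177 stayed called with RLE factors, 177 with DESeq2 and 119 with no block and the L code as a term. The count of 9660 genes became 9101 with no replicate block (4292 higher, 4809 lower), 9686 with RLE factors, 10531 with DESeq2 and 9864 with no filter. It was 2877 (1553 higher, 1324 lower) with no block and the L code as a term, changed together, where only L2 and L3 held both depots. Higher genes numbered 3135 by limma on log2(FPKM + 1), 3169 with + 0.1 and 2997 without the filter, and 2959 on the library total. On the adipocyte scale 14522 genes were called, 105 higher and 14417 lower. Leaving out 1 animal gave 8125 to 10111 (4062 to 5319 higher, 4063 to 4792 lower).

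In females no block gave 2682 higher genes, and leaving out 1 animal 3968 to 8546 in all (2172 to 4371 higher, 1796 to 4175 lower), the lowest without gonadal and intestinal female 1, with 4421 (2502 and 1919) without gonadal female 2 and intestinal female 4. In males this gave 2831 to 7316 (1411 to 3861 higher, 1420 to 3517 lower), the lowest without gonadal male 4 and intestinal male 1, with 4108 (2085 and 2023) without gonadal male 1 and intestinal male 2 and 2979 (1464 and 1515) without gonadal male 2 and intestinal male 3. In Q175 it gave 10084 to 12530. The difference between the sexes gave 1 gene with no block (1 higher, 0 lower), 15 with RLE factors (12 and 3), 494 with DESeq2 (338 and 156) and 0 without any 1 animal. That between genotypes gave 0 with no block, 2 with RLE factors, 489 with DESeq2 (286 and 203), and 0 to 38 without 1 animal (0 to 33 higher, 0 to 5 lower), the 38 without Q175 male gonadal 4 and intestinal 2. The causes were not tested.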
